A study of Mus musculus with 6 samples.

Results

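Cathepsins are the proteases of the endosome and lysosome, and the genes described here are 8 of them (Ctsa, Ctsb, Ctsc, Ctsd, Ctsh, Ctsl, Ctss and Ctsz), the related asparaginyl endopeptidase legumain (Lgmn) and Cst7, which encodes the cystatin F inhibitor. They were taken by gene name from the array files, each with the brightest of its probes, and make up 10 of 27361 gene names. All 10 were on the array, with 16 probes between them, and every probe was well above background and unsaturated on all 6 arrays, so all 10 were tested. Total RNA of mouse bone marrow-derived macrophages (strain C57BL/6) was hybridised to 1-colour Agilent arrays, with 1 array for each genotype and state. The KO cells had the genotype LysMcre FoxO1 Fl/Fl and the WT cells FoxO1 Fl/Fl, so both carried the floxed gene and KO cells alone carried Cre, driven from the lysozyme M gene that myeloid cells use. Marrow was grown for 7 days with 10% L929-conditioned medium, which supplies the growth factor of macrophages. In each genotype, M0 cells were left untreated, M1 cells had lipopolysaccharide (LPS, 100 ng/ml) and interferon-gamma (20 ng/ml) for 24 hours, and M2 cells had IL-4 and IL-13 (each 10 ng/ml) for 24 hours. The series asks how FoxO1 bears on MHC class II expression and on the anti-tumour effect of macrophages in tumours.

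Most of these proteases are made as inactive precursors, carried to the lysosome by mannose 6-phosphate receptors and activated there at acid pH. In cells that present antigen they cut proteins into peptides and remove the invariant chain (Cd74) from MHC class II molecules, a task in which cathepsin S is best known in bone marrow-derived cells and cathepsin L in the thymus. Cystatin F is unusual among cystatins in reaching the lysosome itself, where it can inhibit cathepsin C, the enzyme that activates granule serine proteases.

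Levels below are log2 processed signals relative to the 75th percentile of the array, which lay between 532 and 628 units. Differences are in log2 units. They show how 1 probe varied over arrays and do not rank one gene above another. No group has a replicate, so tests come from an additive limma model of state and genotype over the 6 arrays. Its residual mixes array noise with genotype effects that vary by state, and the labels do not say whether samples came from separate animals. Foxo1 read 224, 165 and 282 units on the KO arrays of M0, M1 and M2, against 1505, 1144 and 1559 units on the WT arrays. Which part of Foxo1 was deleted is not stated in the labels. All 8 macrophage markers on the array were well above background on every array. The WT M0 and WT M1 arrays lay on slide 1 and the other 4 on slide 2, so genotype and slide cannot be told apart in M0 and M1, while both M2 arrays shared a slide. Summed signals of 10 neutrophil markers were 3310 to 8150 units on KO arrays and 8176 to 43083 units on WT arrays. Of these Lcn2, which rose by 5.08 from M0 to M1, alone gave 2701 units in KO M1 and 6050 in WT M1. Some markers went the other way in M1, such as S100a8 (1773 units in KO, 1184 in WT) and Mpo (174 in KO, 93 in WT). Summed signals of 9 stromal markers were 2799 to 3901 units on KO arrays and 4626 to 9473 units on WT arrays. The sums of 8 liver markers were 10649, 1984 and 13227 units on the KO arrays of M0, M1 and M2. On the WT arrays they were 33100, 1716 and 21366 units. Albumin, 1 of these 8, did not follow the sums. It read -2.36 on the KO M1 array and 3.49 on the WT M0 array, and at most -5.97 on the other 4. In such bulk RNA, fewer cells of a type and less RNA per cell cannot be told apart. The part of these transcripts in the results was not tested.

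At the brightest probe of each gene, 3 of the 10 genes passed as higher with LPS and interferon-gamma, Cst7, Ctsc and Ctsz, and none as lower. The other 7 did not pass an adjusted p of 0.05 in limma. Further probes of Ctsa, Ctsb and Ctsd did pass as lower, as described below. Over all 19044 genes tested, 11.6% passed as higher and 14% as lower in M1 than in M0, 25.6% in all. The median M1 minus M0 difference was 0.15 for the 10 genes and 0.03 for all tested genes.

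Cst7, measured by a probe at chr2:150404490-150404549 (mm9, plus strand), changed by far more than the others. It read 4.12 on the KO M1 array and 4.17 on the WT M1 array, against -5.48 on the KO M0 array and -4.09 on the WT M0 array. In units these were 10091 in KO M1 and 10548 in WT M1, against 13 in KO M0 and 31 in WT M0. The M1 arrays differed from each other by 0.05, and both lay far above every M0 and M2 array. The M1 minus M0 difference was 9.60 in KO and 8.26 in WT, or 778-fold and 307-fold, and the mean of 8.93 ± 0.37 (SE) had an adjusted p of 0.0068 in limma. At 13 and 31 units the M0 signals are near the dim end of the array, so the size of the fold depends on the background correction. With normexp correction in place of the processed signal the mean difference was 6.08 (adjusted p of 0.014 in limma).

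Ctsc encodes cathepsin C, or dipeptidyl peptidase I, and its probe lies at chr7:95458436-95458495 (mm9, plus strand). It read 6.85 on the KO M1 array and 6.57 on the WT M1 array, against 4.15 on the KO M0 array and 4.67 on the WT M0 array. The difference was 2.70 in KO and 1.90 in WT. The mean difference of 2.30 ± 0.28 (SE), a 4.93-fold higher signal, had an adjusted p of 0.016 in limma. The gene of the granule protease activator and the gene of its lysosomal inhibitor were both higher in M1.

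Ctsz encodes cathepsin Z, a carboxypeptidase with an integrin-binding motif in its propeptide, and its probe lies at chr2:174253228-174253287 (mm9, minus strand). It read 7.69 on the KO M1 array and 7.67 on the WT M1 array, against 6.77 on both M0 arrays. The genotypes differed by 0.02 in M1 and by -0.0017 in M0, and the mean difference of 0.91 ± 0.18 (SE), or 1.88-fold, had an adjusted p of 0.035 in limma. A further Ctsz probe, 856 bases upstream, gave 0.96 ± 0.15 (SE; adjusted p of 0.020 in limma over 28779 probes). The call for Ctsz was lost with quantile normalization (0.53, adjusted p of 0.15 in limma), with the authors' deposited table of log2 values (0.44, adjusted p of 0.23), with normexp (1.10, adjusted p of 0.099) and without a filter on dim probes (0.91, adjusted p of 0.056).

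The 3 calls in M1 against M0 rest on all 4 M0 and M1 arrays. Leaving out the KO M0, KO M1, WT M0 or WT M1 array left 1 residual degree of freedom and 0 of the 10 genes, and 0 of all genes, past the threshold. Without the WT M0 array, the Cst7 difference was 9.45 and the Ctsc difference 2.49, and without the KO M1 array they were 8.44 and 1.89. M1 and M0 arrays of each genotype shared a slide, so the KO and WT differences above are also the values within slide 2 and slide 1.

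**Figure D1:**
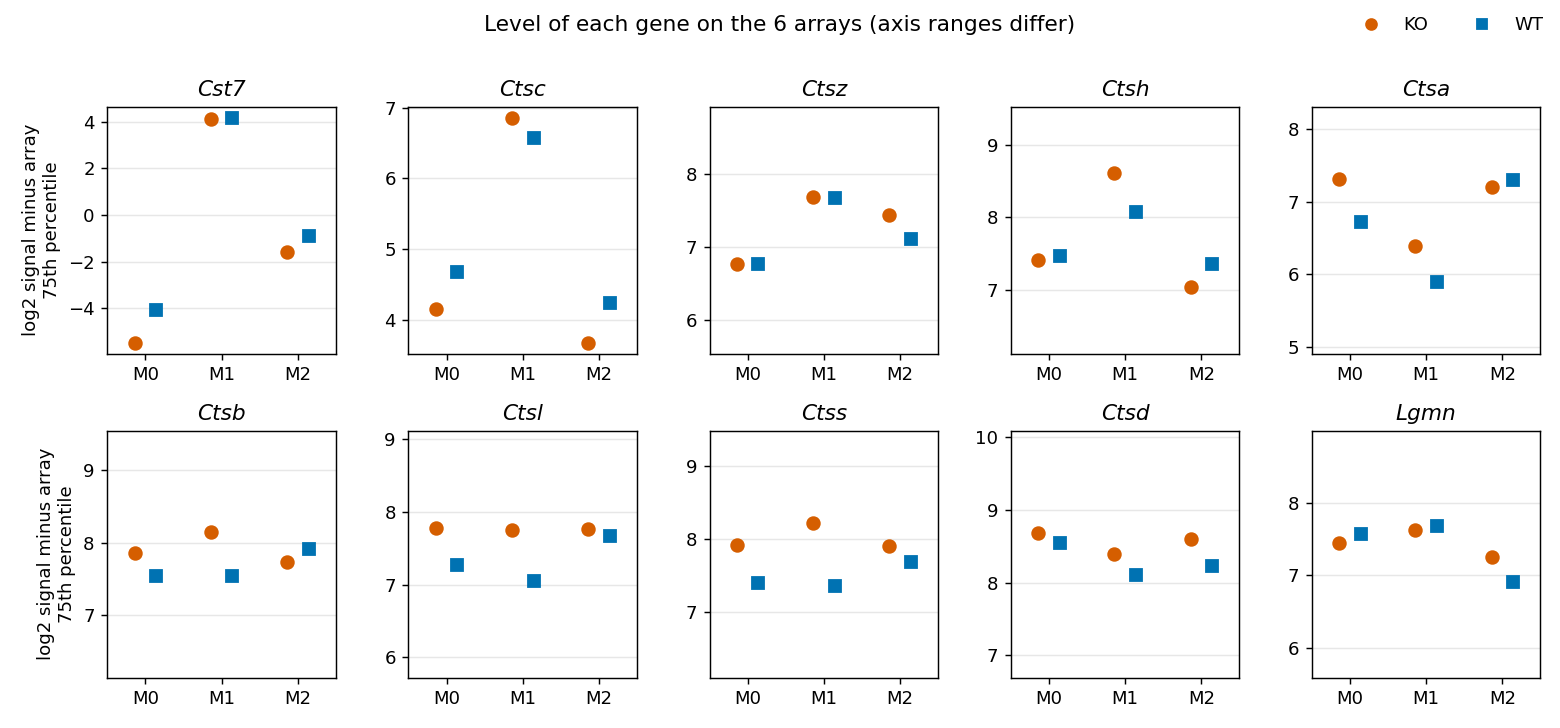
Level of each gene on each array (log2 processed signal relative to the 75th percentile of its array) in M0, M1 and M2, with KO as circles left of WT as squares; each point is 1 array and axis ranges differ. Cst7 runs from -5.48 to 4.17, Ctsc and Ctsz are highest on the M1 arrays, and Ctss and Ctsl have every KO array above every WT array.

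The promoters of the 3 genes that rose are shown with those of Ctss, whose product trims the invariant chain, and Ctsa, whose M1 minus M0 difference was the most negative of the 10. RefSeq (GRCm38.p6) promoter windows from 250 bases before to 50 after the start site were matched for 8 of the 10 genes. Ctsb and Ctsh had no entry. Capitals mark the motifs CACGTG (the E-box core of the CLEAR element of lysosomal genes), the interferon-stimulated response element core (GAAA, any 2 bases, GAAA), TTCNNNGAA (gamma-activated site) and AGGAAGT (PU.1-type ETS site), read on both strands.
Cst7 (chr2:150570165-150570464, plus strand): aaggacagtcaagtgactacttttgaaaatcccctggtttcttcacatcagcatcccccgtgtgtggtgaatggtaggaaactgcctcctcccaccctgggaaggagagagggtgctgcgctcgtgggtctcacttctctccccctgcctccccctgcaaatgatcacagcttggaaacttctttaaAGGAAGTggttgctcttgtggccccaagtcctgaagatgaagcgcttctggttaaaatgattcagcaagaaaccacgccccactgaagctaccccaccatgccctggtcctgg
Ctsc (chr7:88277835-88278134, plus strand): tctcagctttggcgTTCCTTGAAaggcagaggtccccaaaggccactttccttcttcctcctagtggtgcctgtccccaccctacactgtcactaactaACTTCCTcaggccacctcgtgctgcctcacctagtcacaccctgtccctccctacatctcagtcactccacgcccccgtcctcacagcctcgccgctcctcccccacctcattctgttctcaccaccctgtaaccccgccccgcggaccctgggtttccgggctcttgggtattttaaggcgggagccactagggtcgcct
Ctsz (chr2:174438990-174439289, minus strand): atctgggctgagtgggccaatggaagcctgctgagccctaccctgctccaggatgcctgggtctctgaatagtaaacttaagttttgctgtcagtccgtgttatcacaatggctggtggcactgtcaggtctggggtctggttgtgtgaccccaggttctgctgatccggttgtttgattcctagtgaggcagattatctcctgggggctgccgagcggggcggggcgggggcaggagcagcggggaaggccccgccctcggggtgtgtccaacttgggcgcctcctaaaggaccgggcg
Ctss (chr3:95526536-95526835, plus strand): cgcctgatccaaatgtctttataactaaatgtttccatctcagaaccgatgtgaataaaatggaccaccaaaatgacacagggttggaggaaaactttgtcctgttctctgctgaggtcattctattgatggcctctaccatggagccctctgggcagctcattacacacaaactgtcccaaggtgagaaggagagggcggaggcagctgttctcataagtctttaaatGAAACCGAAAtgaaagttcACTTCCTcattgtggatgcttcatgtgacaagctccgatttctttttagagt
Ctsa (chr2:164833523-164833822, plus strand): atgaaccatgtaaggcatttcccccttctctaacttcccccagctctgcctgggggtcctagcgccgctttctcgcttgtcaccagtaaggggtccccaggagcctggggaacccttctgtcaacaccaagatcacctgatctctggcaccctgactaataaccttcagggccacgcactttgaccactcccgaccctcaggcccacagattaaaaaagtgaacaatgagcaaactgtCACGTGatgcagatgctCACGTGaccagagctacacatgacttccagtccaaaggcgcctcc

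In these windows the AGGAAGT core stood 63 bases before the Cst7 start, 151 bases before the Ctsc start and 2 bases before the Ctss start, and it occurs in 9.35% of 32851 promoter windows of this length. The Ctsc window also held a TTCNNNGAA match 236 bases before the start (8.3% of windows), and the Ctss window an interferon-stimulated response element match 21 bases before it (3.44% of windows). The Ctsz window held none of the 4 motifs. The Ctsa window shown carried CACGTG at 12 bases before and 5 bases after the start. Ctsd, Ctsl and Lgmn had a window with at least 1 such core, as do 7.15% of all windows. Ctsa and Lgmn each had another window, for another start site, that held none of the 4 motifs. No marked motif overlapped another. The matches describe the letters and not binding.

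Of the 7 genes that did not pass in M1 against M0, Ctsh and Ctsa came closest. Ctsh, an aminopeptidase, read 8.61 on the KO M1 array and 8.07 on the WT M1 array, against 7.41 on the KO M0 array and 7.47 on the WT M0 array. The mean difference was 0.90 ± 0.27 (SE; adjusted p of 0.085 in limma). Ctsa encodes the carboxypeptidase known as protective protein, which stabilises the lysosomal enzymes neuraminidase 1 and beta-galactosidase, and its brightest probe lies at chr2:164664789-164664848 (mm9, plus strand). It read 6.39 on the KO M1 array and 5.90 on the WT M1 array, against 7.31 on the KO M0 array and 6.71 on the WT M0 array, with a mean difference of -0.87 ± 0.24 (SE; adjusted p of 0.073 in limma). Under 6 of 9 alternatives that kept all arrays the Ctsa difference passed, and under 2 of 9 that of Ctsh did.

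At their brightest probes the remaining 5 genes lay further from the threshold in M1 against M0. Further probes of Ctsb and Ctsd, described below, fell. Ctss read 8.22 in KO M1 and 7.36 in WT M1, against 7.92 in KO M0 and 7.40 in WT M0, so that both WT values lay below both KO values whatever the state. The mean M1 minus M0 difference was 0.13 for Ctss, 0.15 for Ctsb, 0.15 for Lgmn and -0.13 for Ctsl, with SEs of 0.19 to 0.25 and adjusted p-values of 0.62 to 0.71 in limma. For Ctsd, the lysosomal aspartic protease, it was -0.37 ± 0.16 (SE; adjusted p of 0.17). Scaling alone turned the sign of the Ctsb, Ctss, Lgmn and Ctsl differences, so no direction is given for them.

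**Figure D2:**
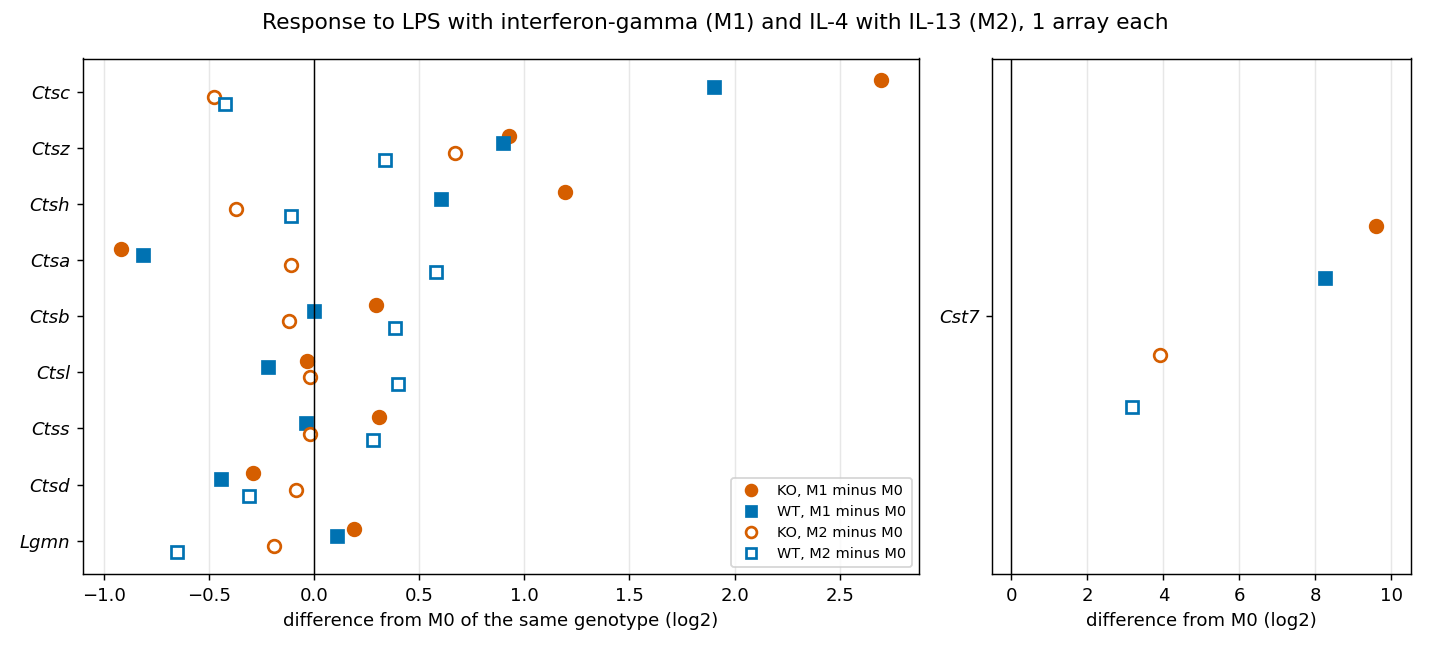
Difference of M1 (filled) and M2 (open) from M0 of the same genotype in log2 units, KO as circles and WT as squares, each point 1 array minus 1 array. Cst7 has its own axis, with 9.60 and 8.26 for M1 and 3.90 and 3.18 for M2; Ctsc is the only other gene above 1.5.

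Several members have more than 1 probe, and these did not always agree. Ctsb is the clearest case. Its brightest probe, at chr14:63761906-63761965 (mm9, plus strand), gave an M1 minus M0 difference of 0.15 ± 0.25 (SE; adjusted p of 0.70 in limma over 28779 probes). A probe 2225 bases downstream at chr14:63764131-63764190 read 3.35 on the KO M1 array and 2.53 on the WT M1 array, against 4.40 on the KO M0 array and 4.27 on the WT M0 array. Its signal fell by 1.39 ± 0.24 (SE) on the log2 scale, to 0.382 of that in M0 (adjusted p of 0.025 in limma). Anywhere in their 60 bases, 4.78% of 41174 array probes and 1 of the 16 probes of these genes hold AATAAA, the letters of the polyadenylation signal. That 1 is the brightest Ctsb probe, which holds them in its last 30 bases, shown in capitals below.
Ctsb (mm9 chr14:63761936-63761965, plus strand): atgtctgtgccAATAAAccaattctccctc

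Ctsa had 4 probes. The probe 1644 bases downstream of the brightest fell by 1.66 ± 0.16 (SE) on the log2 scale (adjusted p of 0.0093 in limma), whereas those 401 and 4998 bases upstream differed by -0.39 and -0.41 (adjusted p-values of 0.12 and 0.15). All 4 were lower in M1 in both genotypes. Of the Ctsd probes, the one 760 bases upstream fell by 0.79 ± 0.15 (SE) on the log2 scale (adjusted p of 0.028 in limma), against -0.37 ± 0.16 at the brightest. The fit over probes was chosen after the data were seen, and no annotation used here places these probes in exons or untranslated regions.

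**Figure D3:**
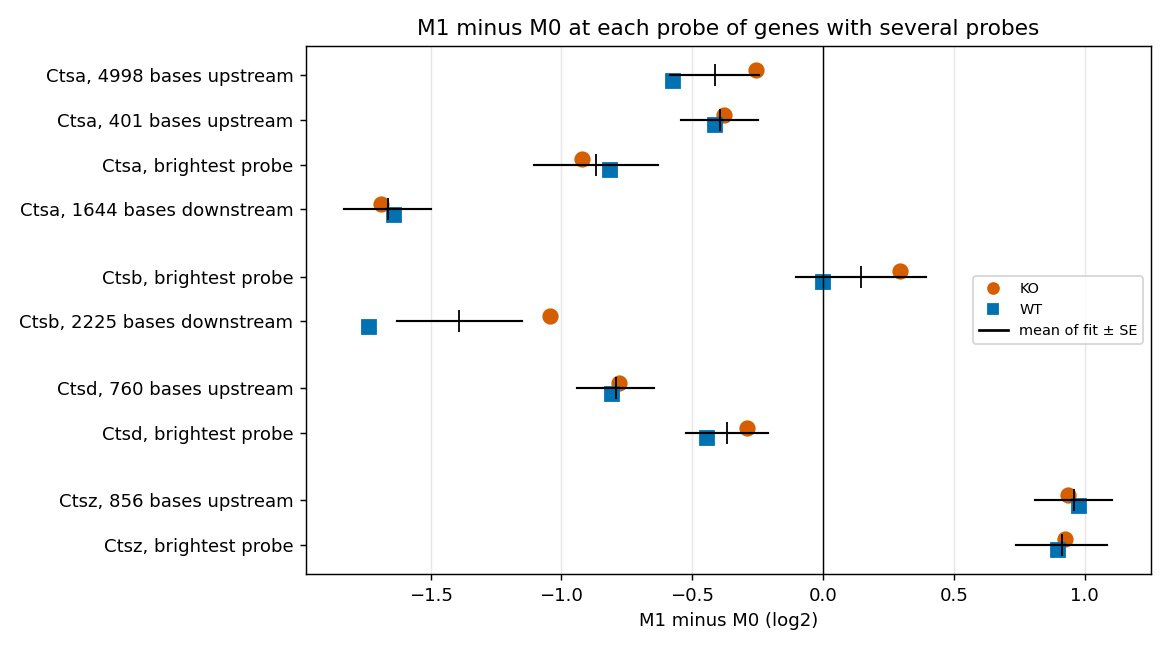
M1 minus M0 (log2) at each probe of the members with several probes, ordered along the transcript, with KO as circles, WT as squares and the fitted mean ± SE as a bar. The Ctsb probe downstream lies at -1.39 and the brightest at 0.15, while the Ctsz probes lie at 0.91 and 0.96.

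IL-4 with IL-13 moved none of the 10 genes past the threshold. Among all 19044 genes 0.0998% passed, 15 (0.0788%) higher and 4 (0.021%) lower, and 3641 had an unadjusted p under 0.05. None of 4 M2 markers (Arg1, Retnla, Chi3l3 and Mrc1) passed either, although their median difference was 8.53. Missing the threshold in this contrast therefore does not show that a gene was unchanged. Cst7 read -1.58 on the KO M2 array and -0.91 on the WT M2 array, against -5.48 on the KO M0 array and -4.09 on the WT M0 array. M2 minus M0 was 3.90 in KO and 3.18 in WT. The mean difference of 3.54 ± 0.37 (SE), 11.7-fold, had an adjusted p of 0.073 in limma. It passed with median centring (adjusted p of 0.011), under the stricter filter that asks for all 6 arrays (0.039) and with a variance prior that follows intensity (0.0055). With normexp the difference was 0.92 (adjusted p of 0.49). Ctsz differed by 0.67 in KO and 0.33 in WT (mean 0.50 ± 0.18, SE; adjusted p of 0.26 in limma). The differences of Lgmn and Ctsc were negative in both genotypes, with means of -0.42 ± 0.19 and -0.45 ± 0.28 (SE; adjusted p-values of 0.33 and 0.42). The median of the 10 genes was 0.13, against 0.08 for all genes.

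Set directly against M2, M1 macrophages had higher Ctsc and Cst7 and lower Ctsa, 2 genes higher and 1 lower of the 10. Of all genes 11.7% passed as higher and 13.6% as lower, 25.3% in all. Ctsc read 6.85 in KO M1 and 6.57 in WT M1, against 3.68 in KO M2 and 4.24 in WT M2, and the mean difference was 2.75 ± 0.28 (SE; 6.74-fold, adjusted p of 0.011 in limma). Cst7 differed by 5.70 in KO and 5.08 in WT, with a mean of 5.39 ± 0.37 (SE; 41.9-fold, adjusted p of 0.0066). Its order over states was M0, M2, M1 in both genotypes, of which the M2 to M0 step did not pass.

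Ctsa read 6.39 in KO M1 and 5.90 in WT M1, against 7.20 in KO M2 and 7.29 in WT M2. It fell by 1.10 ± 0.24 (SE) on the log2 scale (adjusted p of 0.046 in limma). The call was lost with slide as a block (-0.78, the same difference as without the WT M2 array). It was also lost with median centring (-0.78), normexp (-1.07) or no filter (-1.10). Ctsh differed by 1.14 ± 0.27 (SE; adjusted p of 0.053 in limma), with 1.57 in KO and 0.71 in WT, and passed under 4 of 9 alternatives. Leaving out the KO M1 or WT M1 array removed all calls among the 10 genes. Leaving out the KO M0 or WT M0 array left 1, Cst7.

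Between KO and WT over the 3 states, none of the 10 genes passed the threshold. Cre was present in KO alone, so Foxo1 loss and Cre cannot be told apart. None of all 19044 genes passed either (0%), although 2159 had an unadjusted p under 0.05 and 35 passed with a variance prior that follows intensity. The lowest adjusted p was 0.30. The median KO minus WT difference was 0.18 for the 10 genes and 0.09 for all genes.

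Ctss and Ctsl, the proteases of invariant chain processing, had every KO array above every WT array. Their probes lie at chr3:95360162-95360221 (plus strand) and chr13:64465287-64465346 (minus strand) on mm9. Ctss read 7.92, 8.22 and 7.90 on the KO arrays of M0, M1 and M2, and 7.40, 7.36 and 7.68 on the WT arrays. KO minus WT was 0.52, 0.87 and 0.22 in the same order, and the mean was 0.54 ± 0.18 (SE; adjusted p of 0.43 in limma). Ctsl read 7.79, 7.75 and 7.77 on the KO arrays and 7.28, 7.05 and 7.67 on the WT arrays, with differences of 0.51, 0.70 and 0.09 and a mean of 0.43 ± 0.18 (SE; adjusted p of 0.46). Among all genes, 4.12% had all KO arrays above all WT arrays and 1.45% all below. For both genes the smallest difference was in M2, the state whose arrays shared a slide, and with slide as a block the estimates equal those M2 values.

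No protease differed by 2-fold between genotypes within a state. Cst7 was the exception among the 10 genes, with KO minus WT at -1.39, -0.05 and -0.67 in M0, M1 and M2 and a mean of -0.70 ± 0.30 (SE; adjusted p of 0.47 in limma). Within M0, KO exceeded WT by 2-fold or more for 9.96% of all genes, and the reverse held for 4.22%. These shares were 14% and 1.69% within M1 and 3.33% and 4.91% within M2. The Cst7 difference in M0 is that of 13 units on the KO array against 31 units on the WT array, and with normexp its sign turned to 1.24. For Ctsc the same differences were -0.51, 0.28 and -0.56. Ctsd, like Ctss and Ctsl, was above WT in KO in all 3 states (0.14, 0.29 and 0.36 in M0, M1 and M2), as were 22.1% of all genes. Of the 10 genes 5, 8 and 5 had a KO minus WT difference above 0 in M0, M1 and M2, beside 60.8%, 62.4% and 45% of all genes.

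**Figure D4:**
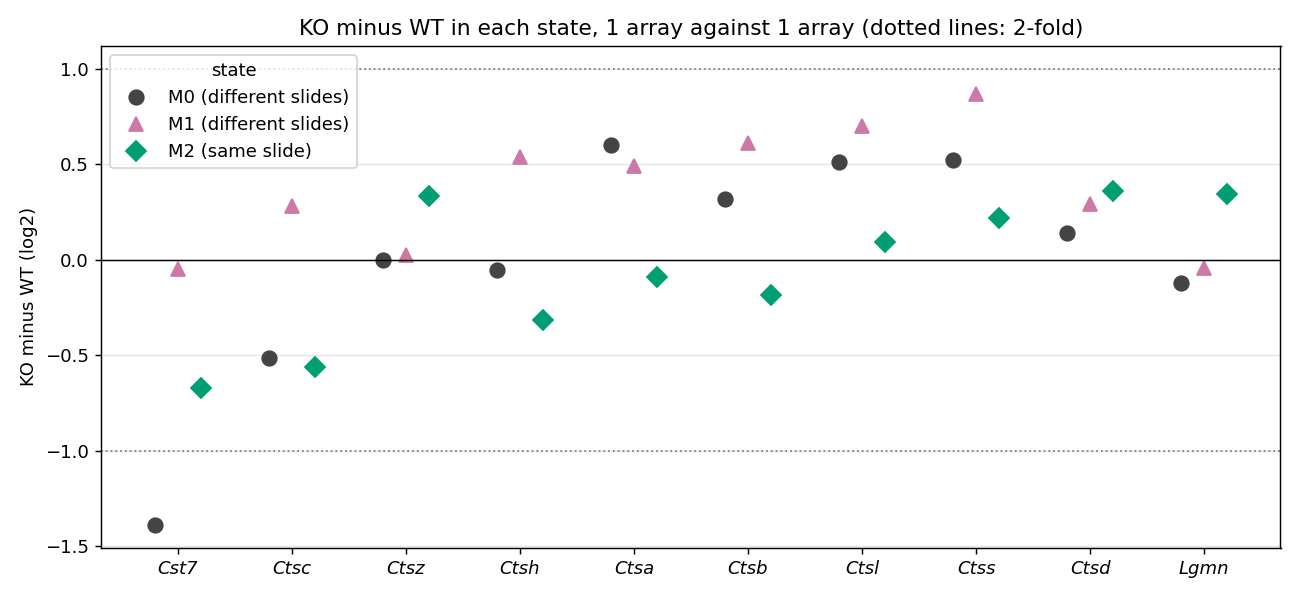
KO minus WT (log2) for each gene in M0, M1 and M2, each point 1 array minus 1 array, with dotted lines at a 2-fold difference. Ctss and Ctsl are above 0 in every state, with 0.22 and 0.09 in M2, and only Cst7 in M0, at -1.39, lies beyond 2-fold.

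Across the 6 arrays the members fell into a few like patterns, described here by Pearson's r over 6 arrays that share states and slides. Ctsc and Ctsh had r = 0.966, Ctsz and Cst7 0.933, Ctsb and Ctss 0.889, and Ctsl and Ctss 0.871. Ctsa ran opposite to Ctsc, with r = -0.901. Among 15867 other genes that every array measured well above background, the level of H2-M3, a class Ib MHC gene, was among the most like that of Ctsc (r = 0.999). The most like Cst7 were Ppp1r18 and Ptcd2 (both 0.998), like Ctsz Zcchc2 (0.996) and the anti-apoptotic gene Bcl2a1b (0.995), and like Ctsh Egflam (0.998) and Xrn1 (0.994). With Ctsa went Rpl10 (0.996) and Abhd5 (0.993), with Ctss Slc25a44 (0.998) and Ccdc92 (0.995), and with Ctsl Gm9802 (0.997) and NAP029297-1 (0.993). For Ctsb they were TC1645773 (0.991) and Atxn7l2 (0.990), for Ctsd Olfr430 (0.989) and Mapk13 (0.987), and for Lgmn Ccdc28a (0.995) and Phip (0.991). The closest of 15867 genes over 6 arrays can reach a high r through the picking alone, and shared regulation was not tested.

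Genes related to these proteases were described by list, and not every listed gene is known to act with them. Of the 64 listed genes tested, 17 passed in M1 against M0, or 26.6% beside 25.6% of all genes. Of these 17 calls, 6 (Ctsf, M6pr, Sort1, Tfec, Sppl2a and Serpinb9) passed under all 9 alternatives that kept the 6 arrays, and no scaling turned the sign of any of the 17. With normexp the other 11 calls were lost. In M1 against M0, 1 of the 8 genes tested in the list of other cathepsins passed, a list that also holds the related gene Tinagl1. Ctsf fell by 1.65 ± 0.15 (SE) on the log2 scale, to -1.68 in KO M1 and -1.69 in WT M1, against -0.09 in KO M0 and 0.02 in WT M0 (adjusted p of 0.010 in limma). In the list of other cystatins and stefins, which also holds the related genes Hrg and Fetub, 4 of 11 rose and 1 fell. The gene listed as 2010005H15Rik (Csta2 in RefSeq) read -0.49 in KO M1 and -0.73 in WT M1, against -4.68 in KO M0 and -4.88 in WT M0, an 18.0-fold difference on the processed signal (4.17, adjusted p of 0.0068), but 1.76 with normexp (adjusted p of 0.092). Csta differed by 3.96 ± 0.43 (SE; adjusted p of 0.013) and was well above background on 4 arrays, not on KO M0 or KO M2; with normexp the difference was 0.62 (adjusted p of 0.42). BC100530 was well above background in M1 and not in M0, at least 8.79-fold on the processed signal (adjusted p of 0.026), whereas with normexp the difference was 0.02 (adjusted p of 0.98). Cstb, at 0.67 ± 0.15 (SE), had an adjusted p of 0.0497 and passed under none of the 4 other scalings (0 of 4). Cst6 fell by 1.52 ± 0.27 (SE) on the log2 scale (adjusted p of 0.030), a call lost with normexp (adjusted p of 0.21) and with the mean of all probes (-0.67, adjusted p of 0.11). Stefin genes are near-identical copies in the mouse, so their probes may read one another.

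Among 7 cytosolic serpins tested, 2 rose and 1 fell in M1. Serpinb9, an inhibitor of granzyme B, read 1.91 in KO M1 and 1.49 in WT M1, against -2.84 in KO M0 and -2.83 in WT M0 (mean 4.54 ± 0.19, SE; adjusted p of 0.0068 in limma). Serpinb1b rose by 2.19 and Serpinb6a fell by 1.73 on the log2 scale, and both calls were lost with normexp (0.82, adjusted p of 0.27, and -1.53, adjusted p of 0.056). The delivery list, of 13 genes, also holds lysosomal enzymes and membrane proteins such as Neu1, Glb1 and Laptm5. In it Sort1, which encodes the sorting receptor sortilin, fell by 6.50 ± 0.42 (SE) on the log2 scale (adjusted p of 0.0075 in limma). Sort1 read -5.47 in KO M1 and -3.81 in WT M1, against 1.69 in KO M0 and 2.03 in WT M0. The M1 signals, 13 units in KO and 42 in WT, are near the dim end of the array, so the size of the fall is uncertain. The mannose 6-phosphate receptors went opposite ways: M6pr rose by 1.26 ± 0.18 (SE; adjusted p of 0.020) and Igf2r fell by 0.93 ± 0.19 (SE; adjusted p of 0.041). Nagpa, which uncovers the mannose 6-phosphate tag, rose by 0.96 (adjusted p of 0.044). Igf2r passed under 6 of the 9 alternatives and Nagpa under 5.

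Of the 4 factors of the TFEB family, which bind E-box elements of lysosomal genes, Tfec fell by 1.90 ± 0.18 (SE) in M1 (adjusted p of 0.011 in limma) and Mitf, Tfeb and Tfe3 did not pass. Sppl2a, the membrane protease that clears the last invariant chain fragment, rose by 1.86 ± 0.19 (SE; adjusted p of 0.012), the only one of 10 class II processing partners to pass. Dpp7 and Napsa fell by 1.03 and 0.77, 2 of 6 other lysosomal proteases, and both calls were lost with median centring and with normexp. In the list of granule genes, none of 5 passed: 4 serine proteases of the kind that cathepsin C activates (Elane, Prtn3, Cma1 and Mcpt4) and Mpo, the neutrophil peroxidase. Among those well above background on all 6 arrays the largest differences were -0.58 for Mpo and 0.15 for Cma1, whose sign turned with normexp.

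**Figure D5:**
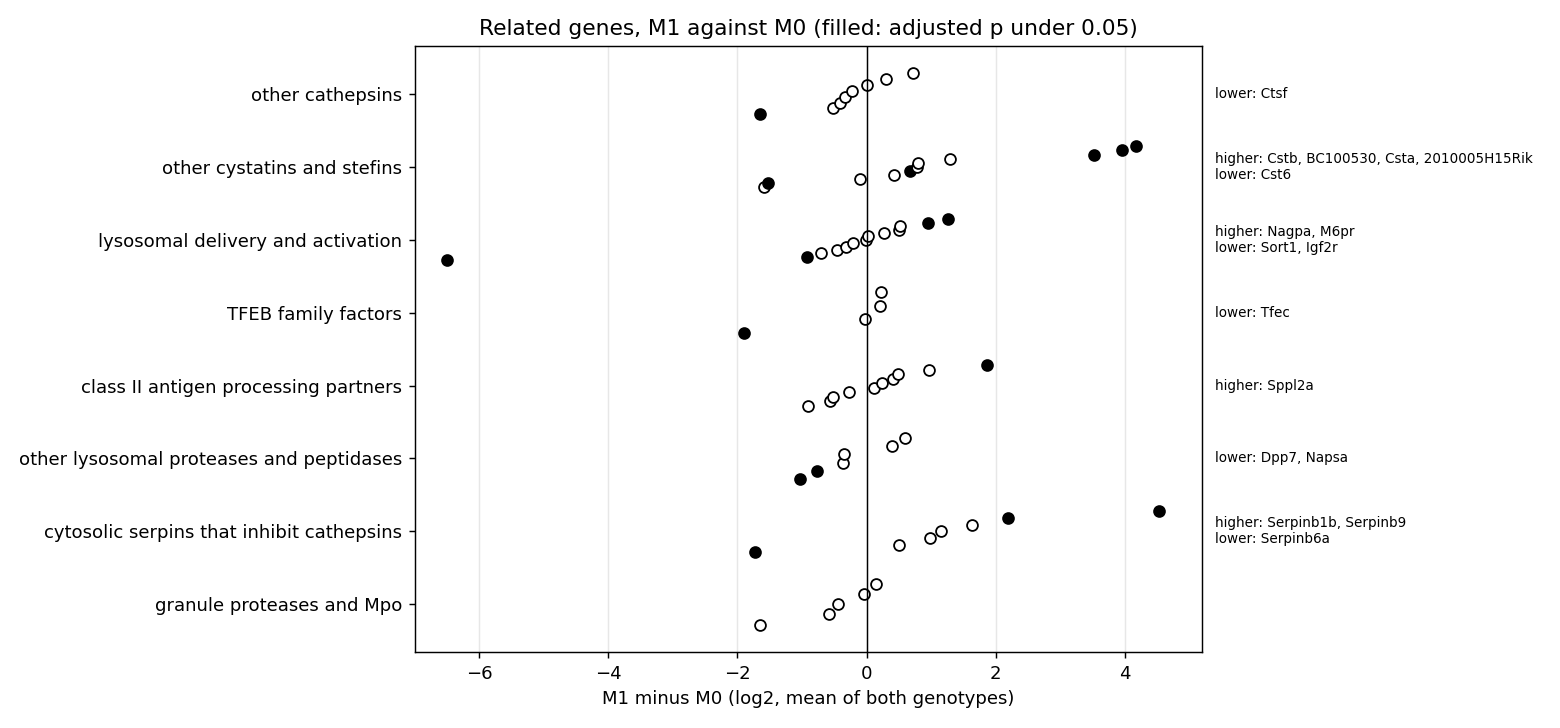
M1 minus M0 (log2, mean of both genotypes) of each tested gene of the 8 lists, filled where the adjusted p in limma was under 0.05 and named at the right. Sort1 lies lowest at -6.50, and Serpinb9, an inhibitor of granzyme B, highest at 4.54. List labels are broad, and not every gene acts on cathepsins.

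Against M2, 25 of the 64 listed genes passed in M1, or 39.1% beside 25.3% of all genes. No scaling turned the sign of any, and 6 passed under all 9 alternatives (2010005H15Rik, Sort1, Tfec, Sppl2a, Serpinb8 and Serpinb9). The WT M1 and WT M2 arrays lay on different slides, and with slide as a block 16 of the 25 calls were lost. Those that passed with the block were the 6 above with Ctsf, BC100530 and Serpinb1b. The block fit gives the same state differences as leaving out the WT M2 array, with 1 residual degree of freedom. It therefore cannot tell a slide effect from the loss of that array. With normexp 17 of the 25 were lost. On the reported fit, M1 again had 2010005H15Rik, Csta and BC100530 higher and Cst6 and Ctsf lower, of which Csta (1.49) and BC100530 (0.91) lost their calls with normexp, as did Cst6 (-0.58) and Ctsf (-1.07). Of the other lysosomal proteases 4 of 6 fell (Dpp7 by 1.55, Napsa by 1.24, Tpp1 by 0.93 and Prcp by 0.91 on the log2 scale) and none rose, and with slide as a block none of the 4 passed (adjusted p-values of 0.051 to 0.11 in limma). Of 10 class II partners Ciita, H2-Eb1, H2-Aa and Ifi30 fell by 2.70, 1.98, 1.75 and 1.16, none of which passed with the block (adjusted p-values of 0.051 to 0.14), while Sppl2a rose by 2.07. Tfec fell by 3.08. In the delivery list Sort1, Igf2r, Glb1 and Laptm5 fell by 6.84, 1.03, 1.01 and 0.79, and M6pr and Neu1 rose by 0.93 and 0.84. Serpinb9, Serpinb8 and Serpinb1b rose by 4.14, 1.98 and 1.22 and Serpinb6a fell by 0.88, while no gene of the granule list passed (Cma1 -0.83, Prtn3 -0.47).

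None of the genes in the 8 lists passed in M2 against M0 or in KO against WT. The 2 largest differences of each list are therefore given, among its genes well above background on all 6 arrays. In M2 against M0 they were those of the class II partners Ciita (2.19) and H2-DMa (2.13), Serpinb1a (1.33) and Serpinb1b (0.97), Tfec (1.18) and Mitf (0.56), Cma1 (0.98) and Prtn3 (0.43). The others were Hrg (0.86) and Cst3 (0.34), Ctsk (0.67) and Ctso (0.39), Prcp (0.57) and Tpp1 (0.56), and Hgsnat (0.45) and Nagpa (0.36). In KO against WT they were Serpinb1a (-1.49) and Serpinb1c (-0.47), Ciita (-1.28) and H2-Aa (-1.02), Ctsk (1.01) and Tinagl1 (0.84), and Mitf (-0.81) and Tfeb (-0.37). In the remaining lists they were Hgsnat (0.76) and Sort1 (-0.76), Cma1 (0.70) and Mpo (-0.41), Napsa (-0.66) and Cpq (-0.32), and Cstb (0.28) and Cst3 (0.23). The median KO minus WT difference of the class II partners was -0.73, and that of the other 7 lists lay between -0.16 and 0.21. The M2 markers did not pass in M2 against M0, nor Foxo1 in KO against WT. A miss in these contrasts therefore does not show a lack of change.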

How the data were processed

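The members and gene lists were chosen with earlier results of these data known. The authors deposited the scanner output of 6 arrays, with the spot intensity as processed signal, as mean signal and as background median; per the file headers, Feature Extraction 10.7.3.1 made it and subtracted background and a spatial trend within each array, without scaling between arrays. A log2 value table was deposited too; its normalization is not given in these sources. Each column of it correlated at r of at least 0.99886 with its own array and at most 0.990 with another (column medians 5.39 to 5.41).

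Control spots and outlier flags (79 to 164 of 43379 spots an array) were left out and spots of a probe averaged. 37 of 41174 probes without a value on every array were dropped. Log2 processed signal was centred on each array's 75th percentile. A gene took its brightest probe and was tested if that was well above background on at least 2 arrays (19044 of 27361 names; 15877 on all 6). No spot was saturated. Where one side of a contrast was not well above background, "at least N-fold" sets the bright mean against the higher of the dim probe's signal and the lowest well-above-background signal. Limma 3.58.1 (R 4.3.3) fitted state and genotype (2 residual df, prior df 1.88) with Benjamini-Hochberg adjustment. The fit was also run on simulated data with independent noise, without slide effects or genotype effects that vary by state. That run does not give error rates for these arrays. Differences of 1 array against 1 array have no test. The number of arrays limits the precision. Named genes were all 10 members, in each list the genes past an adjusted p of 0.05 or else the 2 largest differences, and for each member the 2 genes most like it (1 of these is not reported here). Alternatives were median centring, quantile normalization, normexp (offset 50), the authors' table, the mean of all probes, 2 other filters, slide as a block, a trended prior, each array left out and, added after seeing the data, each further probe. Probe coordinates are mm9, per the file headers. RefSeq sequences are of GRCm38.p6.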

Additional observations from a re-analysis of the deposited data

Results flagged for a closer look

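The response of 2 genes to IL-4 with IL-13 ran in opposite directions in the genotypes, which is what drew attention to them. For Ctsa, M2 minus M0 was -0.11 in KO and 0.58 in WT, a difference of -0.69. For Ctsb it was -0.12 in KO and 0.38 in WT, a difference of -0.50. Each value is 1 array minus 1 array, at least 0.1 from 0 on either side, and the difference between genotypes was not tested. The WT M0 array lay on another slide than the WT M2 array, and both KO arrays lay on the slide of WT M2. Ctsa read 7.20 in KO M2 and 7.29 in WT M2, and 7.31 in KO M0 and 6.71 in WT M0.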

How the results depend on the processing

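Ctsc and Cst7 passed in M1 against M0, and in M1 against M2, under all 9 alternatives to the processing that kept the 6 arrays; Ctsz passed in M1 against M0 under 5, and Ctsa in M1 against M2 under 5. The slide block among them leaves 1 residual degree of freedom, and its state differences equal those of the fit without the WT M2 array. With 1 array a group, leaving out any array also leaves 1 residual degree of freedom. Over the 6 such fits, 0 to 5403 genes and 0 to 4 members passed in M1 against M0, 0 to 4748 genes and 0 to 3 members in M1 against M2, and 0 genes in M2 against M0 and in KO against WT. No paired analysis was possible because each group has 1 array and the labels carry no replicate numbers. The cause of the changes below was not tested.

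With normexp 1287 genes passed in M1 against M0, 1363 in M1 against M2 and 0 in M2 against M0 (3641 at an unadjusted p under 0.05 in the reported fit). In M2 against M0, 19 genes passed as reported, 478 with median centring, 147 with quantile normalization, 153 with the authors' table, 272 with the filter that asks for all 6 arrays, 1074 with the trended prior, and 0 without the filter or with slide as a block. Slide as a block gave 2188 in M1 against M2. With the trended prior 35 passed in KO against WT, and 5 members in M1 against M0 (Ctsa and Ctsh joining) and 5 in M1 against M2 (Ctsh and Lgmn joining). Of the members 1, Cst7, passed in M2 against M0 with median centring, the stricter filter and the trended prior. Among calls, the share higher was 45.3% in M1 against M0 (58.8% with median centring), 46.2% in M1 against M2 (64.4% with median centring) and 78.9% in M2 against M0 (47.5%, 61.9% and 61.4% with median centring, quantile normalization and the authors' table). Median centring shifted the median of all genes by 0.23 in M1 against M0 and 0.32 in M1 against M2, and normexp by -0.36, 0.18 and -0.29 in M1 against M0, M1 against M2 and M2 against M0.

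The sign turned for values that had not passed. In M1 against M0 these were Ctsb (-0.23 quantile, -0.34 authors' table, -0.62 mean of all probes), Ctss (-0.19 quantile, -0.32 authors' table), Lgmn (-0.24 quantile, -0.35 authors' table) and Ctsl (0.10 median centring, 0.12 normexp). In M1 against M2 they were Ctsb (-0.16 quantile, -0.28 authors' table, -0.54 mean of all probes), Ctss (-0.18 quantile, -0.31 authors' table), Ctsd (0.15 median centring) and Ctsl (0.0063 median centring). In M2 against M0 they were Ctsb (-0.062 quantile, -0.057 authors' table, -0.082 mean of all probes, -0.19 slide block), Ctss (-0.015 quantile, -0.011 authors' table, -0.11 slide block), Ctsa (-0.085 slide block), Ctsl (-0.068 slide block) and Ctsh (0.0059 normexp). In KO against WT they were Ctsh (-0.037 median centring, -0.074 quantile, -0.11 normexp, -0.017 authors' table, -0.32 slide block), Lgmn (-0.033 median centring, -0.073 quantile, -0.074 normexp, -0.062 authors' table), Ctsa (-0.092 slide block), Ctsb (-0.18 slide block) and Cst7 (0.25 normexp). At other probes, Ctsb was -1.39 in M1 against M0, -1.10 in M1 against M2 and -0.29 in M2 against M0, and Ctsa was -0.15 in M2 against M0.

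With single arrays left out, the ranges that crossed 0 were -0.13 to 0.42 for Ctsb, -0.12 to 0.38 for Ctss and -0.33 to 0.071 for Ctsl in M1 against M0. They were -0.31 to 0.34 for Ctsb and -0.25 to 0.25 for Ctss in M1 against M2. In M2 against M0 they were -0.085 to 0.55 for Ctsa, -0.19 to 0.46 for Ctsb, -0.52 to 0.037 for Ctsh, -0.068 to 0.44 for Ctsl and -0.11 to 0.37 for Ctss. In KO against WT they were -0.19 to 0.24 for Ctsh and -0.083 to 0.15 for Lgmn.

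Among the listed genes the sign turned, under alternatives that kept the 6 arrays, for 10 values that had not passed. With normexp these were Cma1 in M1 against M0 (-0.59) and in M2 against M0 (-0.55), Prtn3 (-0.59), Serpinb1b (-0.12) and Hrg (-0.033) in M2 against M0, and Serpinb1c in KO against WT (0.29). With the mean of all probes they were Cma1 in M1 against M0 (-0.12) and Cpq in KO against WT (0.16), and with slide as a block Tinagl1 (-0.93) and Cst3 (-0.024) in KO against WT. With single arrays left out, M1 against M0 ranged from -1.59 to 0.42 for Mpo and from -0.14 to 0.44 for Cma1.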
